A study of Arabidopsis thaliana with 8 samples.

Results

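A set of 60 probe sets was higher in inflorescences of the lines T13 and HET than in those of CON and T14. They were chosen by the measured intensities themselves: on the log2(intensity + 16) scale, all 4 T13 and HET arrays had to lie above all 4 CON and T14 arrays, and the mean of the first 4 had to exceed the mean of the others by at least 0.5. Of 22746 probe sets that are not controls, 67 met these conditions, which is 0.295%. Of these, 7 belong to genes left out by the rule, among them the tapetum genes ATA27, AT5G07230 and AMS. The annotation gives exactly 1 gene for 35 of the 60, several genes for 4 and none for 21, which stay unnamed here. The mirrored conditions, with T13 and HET lower, were met by 288 probe sets. Since all 8 arrays were used to choose the members, their difference between T13 and HET on one side and CON and T14 on the other is described below without a test.

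The arrays are Affymetrix ATH1 arrays of Arabidopsis thaliana, ecotype ws, with total RNA from inflorescences at growth stage 6.0, from greenhouse plants kept at 18 °C under 16 h of light. CON is the control, with no insertion given in its labels. In T13 the T-DNA sits in TCP14 (AT3G47620), and in T14 it sits in TCP15 (AT1G69690). HET is labelled as heterozygous for insertions at both genes. The zygosity of T13 and T14 is not given, each insertion is represented by 1 line, and 10 plants were pooled. The second HET array alone is titled as a repeat, and whether it holds the RNA of the first is not given. Each group has 2 arrays, and nothing says that these came from separate pools, so p-values measure the spread between arrays, which may be technical.

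TCP14 and TCP15 belong to the class I TCP proteins, plant transcription factors that act in cell proliferation and growth of organs, inflorescence stems included. An inflorescence holds buds of many ages, and in the anthers of these buds the tapetum, the innermost wall layer, feeds the developing pollen and supplies enzymes, lipids and proteins for the pollen wall before it degrades. Lipid transfer proteins, acyltransferases, esterases and proteases are abundant products of such secretory cells, although members of the same families also work elsewhere in the flower.

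The deposited intensities shared a scale, with array medians from 51.35 to 59.5. TCP15, the gene disrupted in T14, stood at 86.0 and 68.8 on the T14 arrays, 198.2 and 244.0 in CON, 205.9 and 204.1 in T13, and 188.2 and 221.8 in HET. HET thus overlapped CON and T13 and showed no drop like that of T14. No probe set is named for TCP14. The GAPDH control, read as 5' signal over 3' signal, gave 0.345 for HET replicate 1 and 0.0639 to 0.129 for the rest. Both T13 arrays (98.49 and 111.86) and CON replicate 1 (112.87) had a higher scanner background average than the remaining 5, which spanned 83.50 to 87.36. Of 20 late pollen genes listed for this work, 8 had a named probe set, none of them at 0 on any array, and 6 met the mirrored rule. Their summed intensity ran from 1715.1 to 1786.2 in CON, from 1146.7 to 1749.4 in T14, from 411.1 to 457.1 in T13 and from 271.5 to 296.0 in HET. Of 20 tapetum and early anther genes, the 3 with a named probe set all met the rule and are among the genes left out. Their sum was 387.2 to 426.4 in CON, 116.1 to 220.9 in T14, 519.9 to 530.1 in T13 and 720.8 to 1109.9 in HET. Most of this sum came from ATA27 and AT5G07230. The dimmer AMS was not lower in T14 (22.7 and 29.9) than in CON (23.6 and 23.8). Nor was AMS higher in HET (39.0 and 44.9) than in T13 (45.3 and 47.4). The sums of both lists thus moved with the groups compared here, and their part in the values of the members was not tested. In whole inflorescences, fewer cells of a type and less RNA per cell cannot be told apart.

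The size of the difference was modest for most members. The mean of T13 and HET exceeded the mean of CON and T14 by 0.50 to 1.64 on the log2 scale, with a median of 0.67. It reached 1 in 7 members and lay under 0.75 in 40. The distance from the lowest T13 or HET array to the highest CON or T14 array was narrow, with a median of 0.12 on the log2 scale. It was under 0.1 in 27 members and at least 0.3 in 5. The median SD between arrays of a group was 0.28 over the members and 0.23 over all probe sets that are not controls. Many members were dim: of the 60, 28 did not reach an intensity of 50 on any array, while 7 reached it on all 8. The array medians were 51.35 to 59.5, so low values were common on the arrays, and these 2 counts were not made over all probe sets. The filter on low values asked for the 40th percentile of the array on at least 2 arrays. It was passed by 32 members (53.3%, against 66.1% of all probe sets that are not controls), 11 of them only through T13 or HET arrays.

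**Figure D1:**
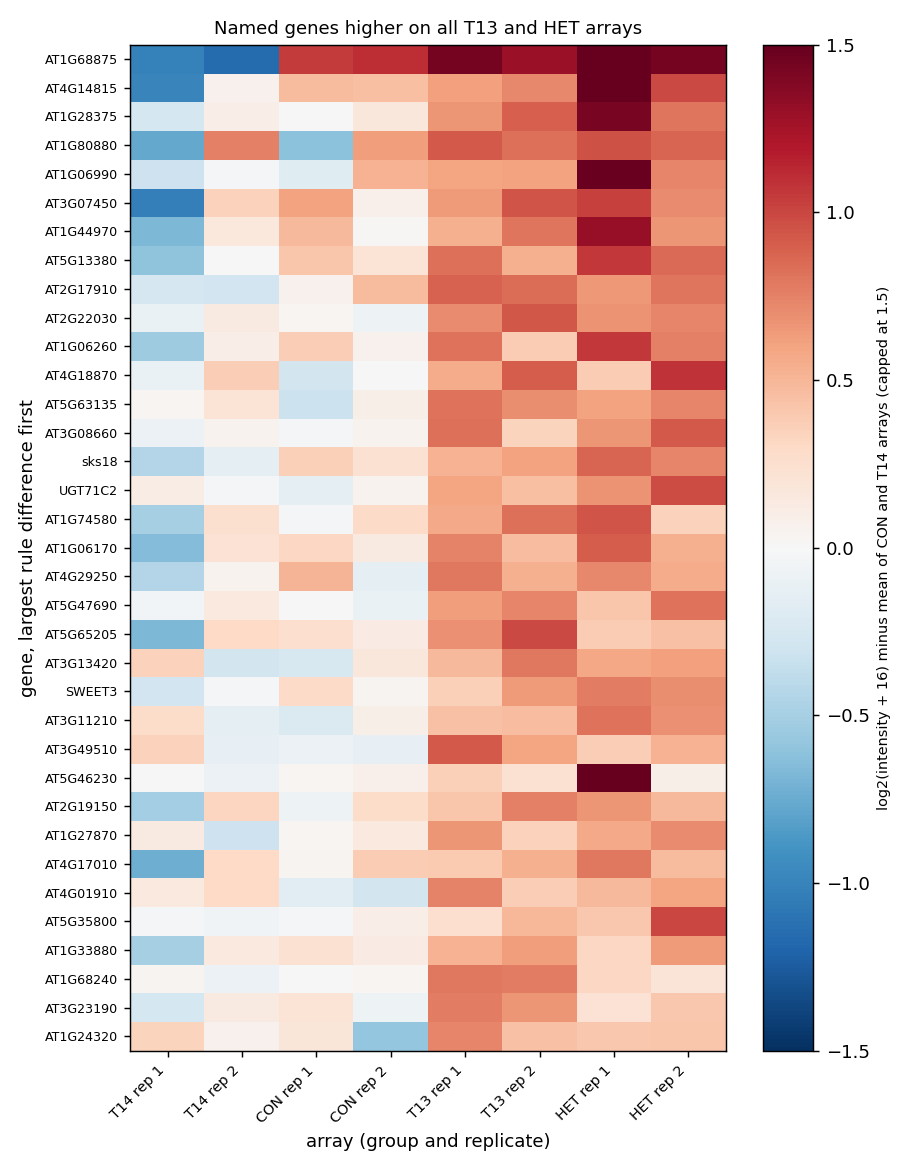
Heat map of the 35 members with 1 named gene (rows, largest rule difference first) on the 8 arrays (columns). Colour is log2(intensity + 16) minus the mean of the 4 CON and T14 arrays, capped at 1.5. All T13 and HET cells are above the CON and T14 cells of their row by the rule. The lowest values fall mostly in T14 replicate 1 and many of the highest in HET replicate 1.

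The gene with the largest rule difference was AT1G68875, for which no role is given here. Its intensity was 247.1 and 259.2 in CON, 47.3 and 41.4 in T14, 328.3 and 296.0 in T13, and 664.1 and 328.2 in HET. T14 lay far below every other array, and T13 and HET replicate 2 lay close to each other and just above CON. The excess of T13 and HET was 0.57 over the CON mean and 2.72 over the T14 mean on the log2 scale. AT1G68875 lies on chromosome 1 with 85 protein-coding genes between it and TCP15 in the gene order of assembly TAIR10.1. The next nearest named member, the dim AT1G68240, has 157 genes between and a T14 minus CON log2 difference of -0.04. Whether distance from TCP15 matters was not tested.

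Members that act at the cell surface or in the wall included genes of the lipid transfer protein family, small secreted proteins that carry lipids. One of them, AT4G14815, stood at 74.4 and 73.5 in CON, 16.8 and 52.3 in T14, 83.9 and 91.9 in T13, and 183.8 and 113.1 in HET. The 4 groups did not overlap, in the order T14, CON, T13, HET. The other, AT3G07450, measured 151.8 and 100.8 in CON, 38.0 and 124.1 in T14, 155.6 and 196.6 in T13, and 208.6 and 163.9 in HET. Here CON and T14 overlapped, T13 and HET overlapped, and T13 replicate 1 was only just above CON replicate 1.

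The peroxidase AT1G44970, of a family of secreted enzymes that can stiffen walls or form reactive oxygen species, had 211.5 ± 52.0 in CON, 148 ± 65.1 in T14, 283 ± 39.2 in T13 and 365 ± 118 in HET (intensity, SD, n = 2 arrays each). Its T14 replicate 2, at 194.3, lay within the range of CON. The SKU5-like protein gene sks18, related to multicopper oxidases, had 44.2 and 39.0 in CON, 18.8 and 26.5 in T14, 51.5 and 55.6 in T13, and 69.9 and 62.3 in HET. As for AT4G14815, its groups were fully separated in the order T14, CON, T13, HET. The pectinesterase-like gene AT2G19150 was dim, from 3.1 to 18.0 in CON and T14 and from 20.4 to 30.0 in T13 and HET. Over these 5 wall and surface genes the rule difference ran from 0.58 to 0.98.

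Enzymes that cut esters, peptides or sugars were a second group of 4. The esterase of the GDSL family AT1G06990 stood at 7.8 and 22.5 in CON, 5.7 and 10.3 in T14, 24.5 and 24.7 in T13, and 58.9 and 28.6 in HET, so that HET replicate 1 was the highest by a wide margin. AT3G11210, of a related esterase family, had 38.4 ± 8.13 in CON, 43.6 ± 12.2 in T14, 61.0 ± 0.990 in T13 and 79.4 ± 6.01 in HET (intensity, SD, n = 2). In this gene T14 was not below CON. The papain-like protease AT1G06260 measured 173.2 and 136.7 in CON, 85.2 and 141.4 in T14, 240.8 and 175.0 in T13, and 290.6 and 231.4 in HET. Its T13 replicate 2 was barely above CON replicate 1, the log2 distance being 0.01. The glucosidase gene AT1G24320, of a family that trims sugars, was the member nearest the minimum, with a rule difference of 0.50. Just outside it were an unnamed probe set at 0.4997, AT2G26390 at 0.493 and another unnamed probe set at 0.492. Just inside were AT3G23190 at 0.515 and a probe set of several genes at 0.512.

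Members that conjugate or move small molecules were 4. AT5G13380, of the GH3 family, whose best known members join amino acids to plant hormones, had 88.8 and 74.4 in CON, 35.7 and 62.0 in T14, 122.9 and 98 in T13, and 148.4 and 125.8 in HET. SWEET3, of a family of membrane sugar carriers, stood at 77.2 and 62.2 in CON, 46.3 and 58.6 in T14, 82.1 and 102.5 in T13, and 113.9 and 107.2 in HET. Both were fully separated in the order T14, CON, T13, HET. The BAHD-type acyltransferase gene AT4G29250 measured 58.1 and 31.3 in CON, 22.2 and 38.0 in T14, 73.6 and 59.0 in T13, and 69.5 and 60 in HET, with CON and T14 overlapping. The glycosyltransferase gene UGT71C2 was dim, from 2.6 to 6.2 in CON and T14 and from 12.1 to 24.6 in T13 and HET.

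**Figure D2:**
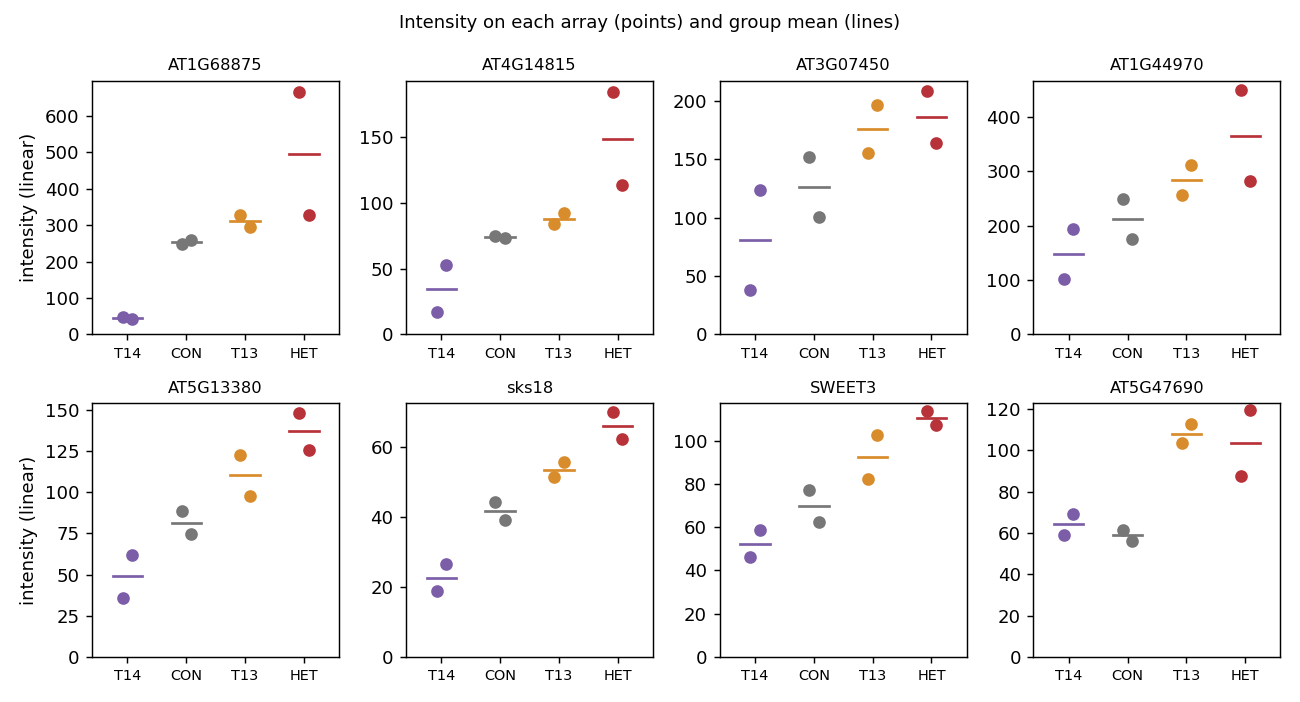
Linear intensity (vertical axis, from 0) of 8 named members in T14, CON, T13 and HET. Points are arrays and lines are means of 2 arrays. AT4G14815 and sks18 have no overlap of groups in the order T14, CON, T13, HET, whereas AT5G47690 has T14 and CON at one level, from 56.1 to 69.4, and T13 and HET at another, from 87.5 to 119.6.

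Regulatory genes were few and dim, and 0 of 5 passed the filter on low values. AT1G06170 encodes a bHLH transcription factor known to act with related factors in the tapetum. It had 17.3 and 13.5 in CON, 1.1 and 15.3 in T14, 29.1 and 21.0 in T13, and 34.7 and 23.1 in HET. The other bHLH gene, AT1G68240, was higher in T13, at 22.1 and 21.6, than in HET, at 11.4 and 9.2, while CON and T14 lay between 4.8 and 6.7. Genes of the F-box family, which select proteins for degradation, were AT2G22030 and AT3G49510. AT2G22030 had the widest distance of all 60, at 0.54 on the log2 scale, with 1.7 to 4.8 in CON and T14 against 14.2 to 20.0 in T13 and HET. AT3G49510 ran from 2.1 to 9.1 against 9.5 to 21.4. It lies on chromosome 3, with 206 protein-coding genes between it and TCP14. AT3G08660, of a family of phototropism-related proteins, ran from 3.0 to 4.9 in CON and T14 and from 9.5 to 22.1 in T13 and HET.

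Genes with roles at chromosomes or in RNA processing were 3. AT5G47690, of the PDS5 family of cohesin cofactors, which hold sister chromatids together, had 58.9 ± 3.89 in CON, 64.2 ± 7.42 in T14, 108 ± 6.36 in T13 and 104 ± 22.7 in HET (intensity, SD, n = 2). The excess of T13 and HET was 0.70 over CON and 0.60 over T14 on the log2 scale. The pentatricopeptide repeat genes AT1G80880 and AT1G74580, of a family that edits or processes organelle RNA, had rule differences of 0.89 and 0.67. In AT1G80880 the replicates disagreed, with 8.3 and 41.4 in CON and 5.9 and 47.0 in T14, against 49.8 to 56.2 in T13 and HET.

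The remaining 14 named members include AT1G68875 and others for which no role is given here. AT1G28375 had 35.6 and 41.9 in CON, 26.8 and 39.0 in T14, 65.3 and 80.0 in T13, and 122.7 and 73.5 in HET, a distance between the sides of 0.49 on the log2 scale. AT5G63135 had 33.0 and 49.0 in CON, 46.3 and 54.8 in T14, 91.8 and 83.3 in T13, and 77.0 and 86.1 in HET. In these genes T13 and HET were separated from both other groups by more than in most members. AT5G65205 was higher in T13, at 84.9 and 108.5, than in HET, at 65.6 and 69.0. AT5G46230 owed its place to HET replicate 1, at 46.3, since the other 7 arrays lay between 2.5 and 9.3. Without that array its rule difference was 0.223. AT2G17910 and AT5G35800 are pseudogenes in the RefSeq table. AT2G17910 had 12.4 to 13.1 in T14, 20.2 and 32.3 in CON, and 38.6 to 48.1 in T13 and HET, and AT5G35800 stayed under 18.5 on all arrays. The others, AT4G18870, AT3G13420, AT1G27870, AT4G17010, AT4G01910, AT1G33880 and AT3G23190, had rule differences from 0.51 to 0.73, and 2 of these 7 passed the filter.

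The brightest member is a probe set for which the annotation lists AT3G15395 and the anther gene ATA20, so its signal cannot be given to either. It measured 797.1 and 1015.7 in CON, 457.0 and 402.0 in T14, 1317.9 and 1187.3 in T13, and 1834.3 and 1690.2 in HET, with no overlap between any groups. Among the 21 unnamed members, rule differences ran up to 1.39, and 13 passed the filter.

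The rule averages CON and T14, so it does not fix the sign of the difference between them. A low value in either group helped a probe set to reach the minimum of 0.5, however, and the excess of T13 and HET was under 0.5 over CON in 20 members and under 0.5 over T14 in 8. The sizes and counts that follow are therefore descriptions of chosen probe sets. The T14 mean was below the CON mean in 42 of 60 members, against 43.9% of all probe sets that are not controls. The median log2 difference of T14 from CON was -0.22 over the members and 0.04 over all of those probe sets. Both T14 arrays lay below both CON arrays in 18 members (13.7% of all probe sets) and above both in 5 (20.3% of all). In limma, AT1G68875 was the 1 called member among the 32 tested, with a T14 minus CON log2 difference of -2.16 (SE 0.277, adjusted p = 0.0341 over 15045 probe sets). Over all tested probe sets, 3 were called lower (0.0199%) and 0 higher. At an unadjusted limma p under 0.05, 422 of all tested were higher (2.8%) and 453 lower (3.01%). At the same cut, 9 of the 32 tested members were lower (28.1%) and 0 higher. These members had been chosen by a rule that a low T14 value helped to meet. Of the 32, 11 passed the filter on low values only through T13 or HET arrays. The shares of members and of all tested probe sets are therefore not alike. Besides AT1G68875, the other 31 tested members had a limma adjusted p of at least 0.178 for T14 against CON. AT1G68875 missed the threshold under 10 of 18 alternatives, its limma adjusted p spanning 0.00436 to 0.397.

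T14 replicate 1 often held the lowest value. It was the lowest array in 31 of 60 members, against 13 for T14 replicate 2 and 8 for each CON array, and the rule lets only these 4 arrays be lowest. It lay below T14 replicate 2 in 40 members, against 49.9% of all probe sets. Without T14 replicate 1 the median T14 minus CON difference was -0.05, with 34 members below CON (45.1% of all probe sets), and without T14 replicate 2 it was -0.35, with 41 (45.5% of all). AT1G68875 measured -2.23 without T14 replicate 1 (limma adjusted p = 0.138) and -2.09 without T14 replicate 2 (limma adjusted p = 0.142). Without CON replicate 1 it measured -2.19 (limma adjusted p = 0.287) and without CON replicate 2 -2.13 (limma adjusted p = 0.193). AT3G07450 moved from -0.69 to 0.00 without T14 replicate 1, AT4G14815 from -0.93 to -0.40, and sks18 from -0.58 to -0.44.

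**Figure D3:**
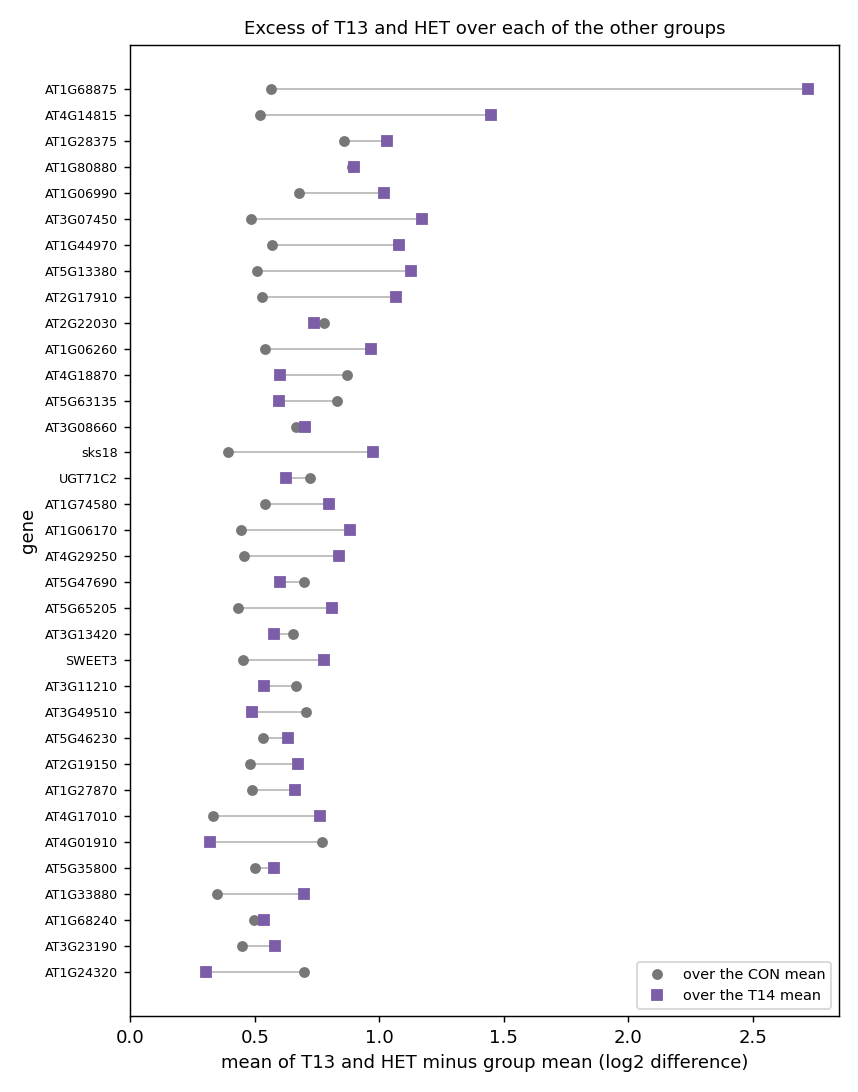
Excess of the mean of T13 and HET over the CON mean (circles) and over the T14 mean (squares), as log2 differences, for the 35 named members. In AT1G68875 the excess is 0.57 over CON and 2.72 over T14, while in AT5G47690 both lie close together, at 0.70 and 0.60.

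The excess of T13 and HET was larger over T14 than over CON in 42 members and the reverse in 18. This restates the counts of T14 means below and above the CON mean (43.9% and 56.1% of all probe sets). The median excess was 0.72 over T14 and 0.55 over CON, against -0.01 and 0.03 over all probe sets that are not controls. It reached 1 on the log2 scale over T14 in 16 members and over CON in 1, counts that were not made over all probe sets. The rule fixes that both excesses are positive and at least 0.5 on average, so these values describe only their relative size.

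HET and T13 are likewise averaged by the rule, so that a high value in either helped a probe set to be chosen. The HET mean exceeded the T13 mean in 35 of 60 members, against 40.9% of all probe sets, and the median difference was 0.06 on the log2 scale, against -0.06 over all. No member and no other probe set was called in limma for HET against T13 (0% of 15045), and the smallest adjusted p of a tested member was 0.455. At an unadjusted limma p under 0.05, 583 of all tested probe sets were higher in HET (3.88%) and 908 lower (6.04%). At the same cut, 3 of the 32 tested members were higher (9.38%) and 0 lower. Here too the shares are not alike, since 11 of the 32 passed the filter only through T13 or HET arrays. Both HET arrays lay above both T13 arrays in 12 members (14.6% of all probe sets) and below both in 7 (26% of all). The largest excess of HET among the named genes was that of AT4G14815, at 0.63, and the largest excess of T13 was that of AT1G68240, at 0.53.

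HET replicate 1, whose GAPDH ratio was 0.345, was the highest array in 27 of 60 members, against 12 and 11 for the T13 arrays and 10 for HET replicate 2, and the rule lets only these 4 arrays be highest. It lay above HET replicate 2 in 32 members, against 39.5% of all probe sets. Without it the median HET minus T13 difference was 0.02, and 33 members had the higher mean in HET (46.3% of all probe sets). For AT1G68875 the difference went from 0.56 to 0.07 without this array, for AT1G06990 from 0.51 to 0.14, and for AT4G14815 from 0.63 to 0.31. In a fit that took the GAPDH ratio into account, the HET minus T13 difference of AT1G68875 turned to -0.35 and that of AT1G06990 to -0.28, while that of AT4G14815 was 0.38. The count of members with a higher HET mean was then 37 (52.6% of all probe sets). It was 48 after quantile normalization (49.6% of all) and 49 after median centring (56.9% of all), which moved the median HET minus T13 difference of all probe sets from -0.06 to 0.05.

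The complete order T14, CON, T13, HET, with no overlap at any step, was found in 9 of 60 members, where the step from CON to T13 is fixed by the rule. The other steps, T14 below CON and HET above T13, are not fixed, but low T14 and high HET values helped a probe set to be chosen. Both steps held for 3.31% of all probe sets, which were not chosen in this way. Of these 9, 4 have a named gene: AT4G14815, AT5G13380, sks18 and SWEET3.

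**Figure D4:**
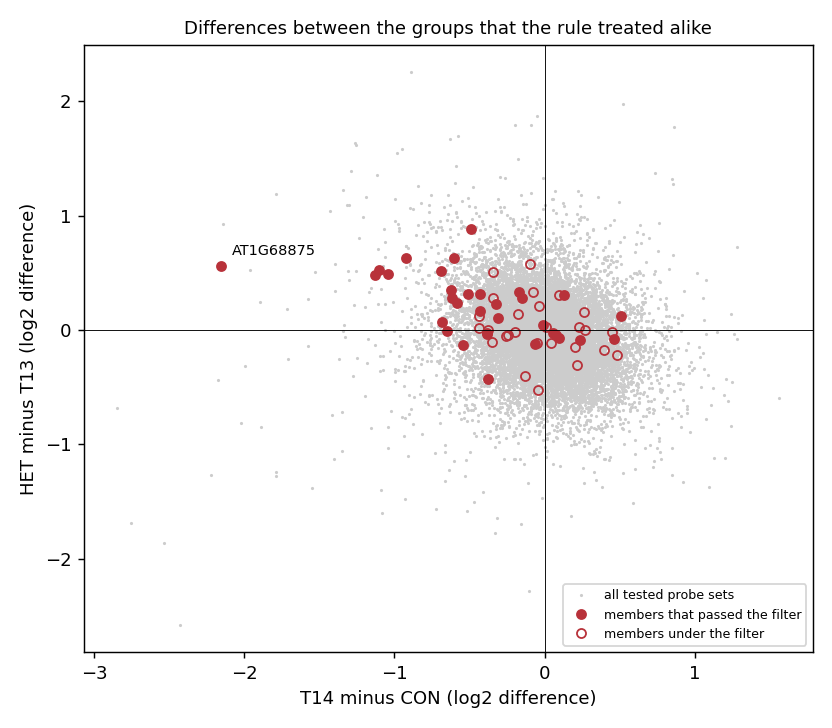
HET minus T13 (vertical axis) against T14 minus CON (horizontal axis), both as log2 differences, for all 15045 tested probe sets (grey), the 32 members that passed the filter (filled) and the 28 under it (open). The members farthest to the left lie above the zero line of HET minus T13, with AT1G68875 at -2.16.

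By position, 13 of the 35 named members lie on chromosome 1 (37.1%, against 25.8% of all named probe sets). On chromosome 2 lie 4 (11.4%, against 16.5%) and on chromosome 3 lie 6 (17.1%, against 20.5%). Chromosome 4 holds 5 (14.3%, against 14.7%) and chromosome 5 holds 7 (20.0%, against 22.5%). The difference between these shares was not tested. AT1G06260 and AT1G06170, with 9 protein-coding genes between them, were the closest neighbours and the 1 pair within 20 genes. No member gene had a further probe set with which to repeat the measurement. Of 17 gene lists with 171 genes, which cover hormones, stress, the cell cycle, walls, pigments and cell types, 36 genes had a named probe set and 28 passed the filter. Of the 36, 4 met the rule and are left out by name, namely AT5G07230, ATA27, AMS and, from the ethylene list, AT1G12010 with a rule difference of 1.49. No list gene with a probe set of its own is therefore a member. Lists were matched only to probe sets with exactly 1 gene. The brightest member, shared by AT3G15395 and ATA20, was thus not counted, although ATA20 is on the tapetum and early anther list. In limma 0 of these 28 were called in either comparison. At an unadjusted p under 0.05, 4 were higher and 3 lower in HET than in T13, where all tested probe sets gave 3.88% and 6.04%. In T14 against CON, 0 were higher and 3 lower, where all tested gave 2.8% and 3.01%. The lists were chosen with earlier results of these data known, and they hold genes that the rule leaves out by name. These counts, each out of 28, therefore describe chosen genes only.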

How the data were processed

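Total RNA from inflorescences was hybridised to 8 ATH1 arrays, 2 for each of 4 groups taken from the labels. The deposited intensity is 1 linear value per probe set and array, for 22810 probe sets, made by the authors with summary software not given in the sources used here. After trimming 2% at each side, every array averaged 100.01, so no scaling was added. Gene names came from the platform annotation and a RefSeq table of assembly TAIR10.1: 13513 probe sets have 1 gene, 503 several and 8794 none, 64 controls included. Coordinates are not printed, since no build is named for the files.

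For choosing members and for fits, 16 was added and log2 taken, which understates differences of dim genes. limma 3.58.1 in R 4.3.3 (lmFit, eBayes with a trend) used all 8 arrays, 4 residual and 7.39 prior degrees of freedom, and Benjamini-Hochberg adjustment over 15045 probe sets that reached the 40th percentile of their array on at least 2 arrays. A call is an adjusted p under 0.05. The script was tested on simulated data. Members, lists and tests were chosen with earlier results of these data known. The rule for named genes took 27 of the 35 named members (largest rule differences, extreme HET minus T13 or T14 minus CON, called members and those nearest the minimum), and the other 8 are named after their values were seen. Family roles are background knowledge, since the annotation tables hold family words for only 1 member. Alternatives were other pseudocounts (1 and 32), filters, scalings, covariates and priors, and leaving out each array. The number of arrays limits the precision. Figures were drawn with matplotlib 3.10.9.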

Additional observations from a re-analysis of the deposited data

Results flagged for a closer look

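In 8 named members both T14 arrays lay below both CON arrays while both T13 arrays lay above them. The T13 arrays are above CON by the rule. The rule does not fix the order of T14 and CON, but a low T14 value helped a probe set to reach the minimum of 0.5. Over all probe sets, which were not chosen in this way, both T14 arrays lay below both CON arrays in 13.7%. The T14 minus CON log2 differences were -2.16 for AT1G68875, -0.93 for AT4G14815, -0.62 for AT5G13380, -0.58 for sks18, -0.54 for AT2G17910, -0.32 for SWEET3, -0.10 for AT5G46230 and -0.0785 for AT5G35800. AT5G46230 and AT5G35800 were near the floor, with no CON or T14 array above 4.7. The difference between the lines was not tested here, because the rule chose the members with all T13 arrays above all T14 arrays. The GAPDH control is used only as a covariate in an alternative fit. Its 5' signal over its 3' signal gave 0.345 for HET replicate 1, while the CON arrays gave 0.0860 and 0.129.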

How the results depend on the processing

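The number of members was 60 with a pseudocount of 16. It was 128 with a pseudocount of 1 and 29 with 32, because the minimum of 0.5 is on that scale, and from 80 to 145 when 1 array was left out, because fewer arrays then had to be separated. Of the 60, 49 to 57 were kept when 1 array was left out, 50 after quantile normalization and 53 after median centring. In limma the count called for HET against T13 was 0 (583 higher and 908 lower at an unadjusted p under 0.05), 1 with a variance prior without a trend, and 0 to 2 without 1 array. T14 against CON called 3, with 0 at a pseudocount of 1 (415 higher and 442 lower at an unadjusted p under 0.05), 0 with no filter (712 and 594) and 0 with a covariate for scanner background (215 and 235), 1 without the trend, 5 after quantile normalization, 10 with the arrays of these groups alone, and 0 to 5 without 1 array. The called member AT1G68875 was lost, leaving 0, at pseudocounts of 1 and 32, after median centring, without the filter, with the background covariate and without the trend, and the count was 0 to 1 without 1 array. Its log2 difference stayed between -2.49 and -1.90 in all alternatives run. The causes were not tested. The counts of members above or below by group mean, given above without single arrays, under other scalings and with the GAPDH covariate, were added after seeing the data. Of 324 rule differences, from alternatives for the 27 genes that the naming rule took, 32 moved by more than the SD between arrays, 24 of them with another pseudocount. No paired analysis was possible because the labels give no replicate numbers shared between groups. The 28 of 60 members that did not pass the filter on low values were not tested.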
